A study of Bos taurus with 6 samples.

Results

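bta-miR-143 and bta-miR-145 are a pair of microRNAs (miRNAs) encoded side by side in the genome. They were chosen by name in the miRNA part of the deposited table, where each has a single row without an arm suffix, so 2 of 765 miRNA rows are described here. Primary myoblasts from the longissimus dorsi muscle of fetal cattle were sequenced for small RNA and for mRNA after treatment with 20 μM resveratrol dissolved in DMSO (RSV group, 3 cultures) or with DMSO alone (DMSO group, 3 cultures). Both groups were kept for 4 days in differentiation medium, in which myoblasts leave the cell cycle and fuse. Per the methods, myoblasts were enriched by a short preplating step, and the cells of each group were collected in 3 independent experiments. The sources used here do not tell how many fetuses the myoblasts came from. P-values below therefore measure the spread between cultures that may share a fetus.

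miRNAs are short RNAs that pair with mRNAs through their seed, a few bases near the 5′ end, and lower the stability or translation of the mRNA. miR-143 and miR-145 are cut from a shared primary transcript whose transcription is switched on by serum response factor (SRF), a DNA-binding protein, together with its co-activators of the myocardin family. The same factors switch on genes of the contractile apparatus and the actin cytoskeleton. Both miRNAs are best known from smooth muscle, where they are abundant and support the contractile state, and they are also common in fibroblasts and other mesenchymal cells. In the RefSeq gene table of the assembly ARS-UCD2.0, MIR143 and MIR145 lie on the same chromosome with no other gene between them. A long non-coding RNA, LOC132345768, spans both, and the nearest protein-coding genes on either side are IL17B and CSNK1A1. Their mature sequences were not analysed here.

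The deposited table holds a single value for each miRNA in each group: read counts, scaled for sequencing depth by size factors and averaged over 3 libraries. These means are called normalized reads below. Over all 765 miRNAs they sum to 6637955 in RSV and 7340618 in DMSO. The size factors behind the miRNA means, read from the smallest values, came to 1.54, 1.29 and 0.935 for RSV and to 0.922, 0.823 and 0.729 for DMSO. Whole reads of single libraries could be worked back from the means of 506 miRNAs, none with a mean above 112 normalized reads. Both miRNAs described here lie far above that limit, so no value of a single library, no spread between cultures and no test can be given for them.

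Both miRNAs were abundant and, on the deposited scale, nearly level between the groups. bta-miR-143 had a mean of 349090 normalized reads in RSV and 360521 in DMSO, which is 3.17% lower in RSV, a log2 ratio of −0.05. bta-miR-145 had 30998 normalized reads in RSV and 30450 in DMSO, which is 1.80% higher in RSV, a log2 ratio of 0.03. Counting error alone gives a 95% interval of −0.050 to −0.043 for the log2 ratio of bta-miR-143 and of 0.012 to 0.039 for that of bta-miR-145. These intervals cover counting error only and leave out the differences between cultures. The sign of the bta-miR-143 ratio depends on the scaling: as a share of all miRNA reads it was higher in RSV, by 0.10 on the log2 scale, and bta-miR-145 was then higher by 0.17. That scaling raises every log2 ratio by 0.15, and ratios below are on the deposited scale.

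The spread between libraries could be computed for 49 other miRNAs, with 30 or more normalized reads in both groups and with whole reads recovered. The SD of log2 normalized reads among the 3 libraries had a median of 0.22 in RSV and 0.18 in DMSO. Reads as few as these give a median SD of 0.19 and 0.23 from counting alone, so the values do not show the spread of abundant miRNAs.

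By level, bta-miR-143 held rank 3 of all miRNAs in RSV and rank 5 in DMSO, and bta-miR-145 held ranks 23 and 24. bta-miR-143 took 5.26% of the summed normalized reads in RSV and 4.91% in DMSO. bta-miR-145 took 0.467% and 0.415%. miR-21-5p, the most abundant miRNA in both groups and one common in proliferating and mesenchymal cells, had 2395745 normalized reads in RSV and 2578774 in DMSO.

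**Figure D1:**
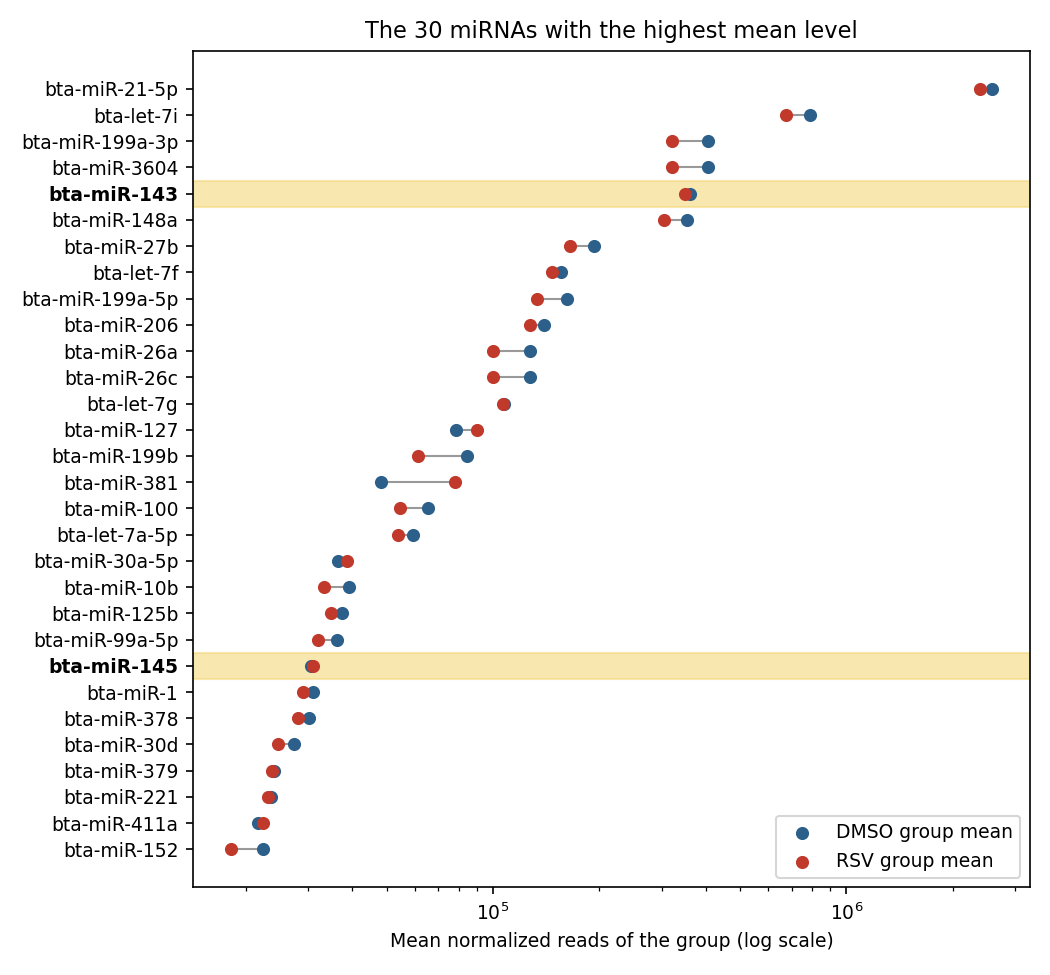
Mean normalized reads (log scale) of the 30 miRNAs with the highest level over both groups, with 1 point for the RSV and 1 for the DMSO group mean; no error can be shown because the table holds means alone. The points of bta-miR-143 (349090 in RSV, 360521 in DMSO) and bta-miR-145 (30998 and 30450), on shaded lines, nearly coincide.

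The miRNAs nearest to bta-miR-143 in level were bta-miR-3604, bta-miR-199a-3p and bta-miR-148a. On the deposited scale, their means differed more between the groups. The share of all miRNA reads raises every log2 ratio by 0.15. On that scale bta-miR-148a differed less than bta-miR-143, and the other neighbours still differed more. bta-miR-199a-3p had 321333 normalized reads in RSV and 407149 in DMSO, a log2 ratio of −0.34. bta-miR-3604 differed from it by less than 0.1% in both groups, so the same reads may be counted in both rows. bta-miR-148a had 304779 and 353882, a log2 ratio of −0.22. bta-miR-143 stood below bta-miR-3604 and bta-miR-199a-3p in DMSO and above them in RSV, and it stood above bta-miR-148a in both groups. Neither bta-miR-143 nor bta-miR-145 shares its values with another row in this way, whereas 5 such pairs were found among the 146 miRNAs whose mean reached 1000 normalized reads.

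The miRNAs nearest to bta-miR-145 in level were bta-miR-1, bta-miR-378 and bta-miR-99a-5p. bta-miR-1, a muscle miRNA, had 28912 normalized reads in RSV and 30883 in DMSO, a log2 ratio of −0.10. bta-miR-378, which is encoded within a regulator of mitochondrial metabolism, had 28136 and 30108, also a log2 ratio of −0.10. bta-miR-99a-5p had 31905 and 36088, a log2 ratio of −0.18. All 3 were lower in RSV on the deposited scale, while bta-miR-145 was not. As a share of all miRNA reads, bta-miR-145 was higher in RSV and differed more than any of the 3.

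The abundant miRNAs as a class lay lower in RSV on the deposited scale. Of the 56 miRNAs whose mean reached 10000 normalized reads, 43 had a lower and 13 a higher mean in RSV, with a median log2 ratio of −0.13. The log2 ratio of bta-miR-143 was 0.09 above that median and the ratio of bta-miR-145 was 0.16 above it. Of these, 17 had a higher log2 ratio than bta-miR-143, and 10 had a higher ratio than bta-miR-145. The 56 include pairs of rows within 0.1% of each other. With each such pair counted once, 39 of 52 had a lower mean in RSV and the median was −0.12. Over the 391 miRNAs with a mean of at least 10 and reads in both groups, the median was 0.00 and the middle 50% of the ratios ran from −0.17 to 0.20.

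As no test was possible, a difference of at least 1.5 fold in either direction was taken as the threshold for means. It was passed by 38 of the 391 miRNAs (9.72%), 21 higher and 17 lower in RSV, and by neither bta-miR-143 nor bta-miR-145. Among miRNAs with a mean of at least 10000, bta-miR-381 alone passed it. Of the 391 miRNAs, 64 (16.4%) had an absolute log2 ratio no larger than that of bta-miR-143, and 37 (9.46%) no larger than that of bta-miR-145, each count including the miRNA itself. In the ratio of the groups, the closest miRNAs with a mean of at least 100 were bta-miR-146a, bta-miR-3432a and bta-miR-500 for bta-miR-143 and bta-miR-1307, bta-miR-335 and bta-miR-23a for bta-miR-145. Their log2 ratios lay up to 0.0047 away, a likeness over the 2 group means alone.

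**Figure D2:**
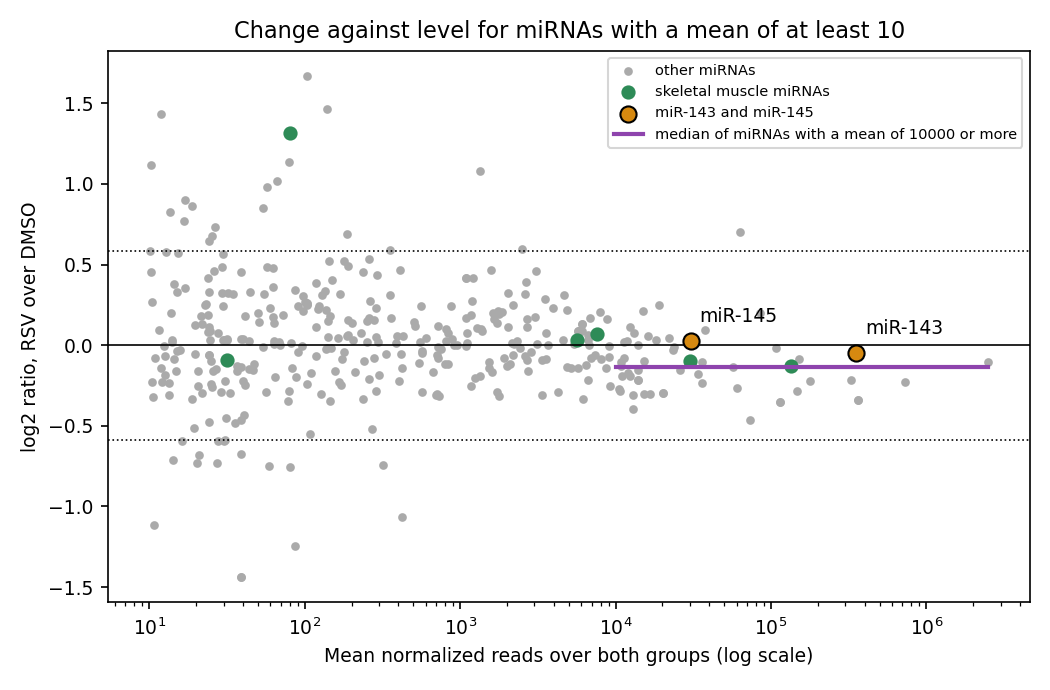
The log2 ratio of the group means (RSV over DMSO) against the mean normalized reads over both groups (log scale) for 391 miRNAs; dotted lines mark 1.5 fold. bta-miR-143 (−0.05) and bta-miR-145 (0.03) lie near 0 and above the median of −0.13 of the 56 miRNAs with a mean of at least 10000.

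Taken as a cluster, bta-miR-143 and bta-miR-145 summed to 380087 normalized reads in RSV and 390970 in DMSO, a log2 ratio of −0.04, and to 5.73% and 5.33% of all normalized reads. The ratio of the 2 miRNAs within a group does not depend on how the groups are scaled to each other. bta-miR-143 exceeded bta-miR-145 by 11.3 fold in RSV and by 11.8 fold in DMSO, and the difference was −0.07 on the log2 scale. Ligation and mapping can favour either miRNA in small RNA libraries, so this proportion is not one of molecules.

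Markers of cell types were taken from a fixed list. Skeletal muscle miRNAs differed widely in level: bta-miR-206 had 127629 normalized reads in RSV and 139464 in DMSO, bta-miR-133a had 7817 and 7453, and bta-miR-208b had 30.5 and 32.5. The 6 listed of 7 muscle miRNAs summed to 170191 and 183428 normalized reads, a log2 ratio of −0.11, and bta-miR-143 alone exceeded that sum by 2.05 fold in RSV and 1.97 fold in DMSO. bta-miR-499, which is encoded within a slow myosin gene, stood apart with 115 against 46.1 normalized reads.

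The other miRNAs of the mesenchymal list had lower means in RSV on the deposited scale. bta-miR-214 had 8452 normalized reads in RSV and 10059 in DMSO, a log2 ratio of −0.25, and bta-miR-199a-5p had 133246 and 162358, a log2 ratio of −0.29. The 7 rows of this list, bta-miR-143 and bta-miR-145 included, summed to 3239103 and 3549712, with bta-miR-21-5p as the greater part. Markers of other cells were low: the endothelial miR-126 had 305 and 275 normalized reads over both arms, the epithelial list summed to 105 and 111, the white blood cell list to 62.4 and 52.8 with miR-223 at 0 in RSV, and the liver miRNA miR-122 had 88.4 and 43.6. The red blood cell list summed to 762 and 646, in which bta-miR-451 had 204 against 73.8 and bta-miR-486, the greater part, 558 against 572. The nerve list summed to 1174 and 1156, nearly all of it bta-miR-9-5p. The part of the cell types in the levels of bta-miR-143 and bta-miR-145 was not tested. Fewer cells of a type and less RNA per cell cannot be told apart in such bulk samples.

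The mRNAs that SRF switches on were examined in the same cultures with a list of 45 genes, SRF and its co-activators included. The table gives mRNAs by Ensembl identifier. Of the sources used here, only the study's sheet of differentially expressed mRNAs paired these with gene names. For 15 of the 45 a name matched a single mRNA. The other 30 were not analysed here. The 15 were therefore named because they differ, and neither their number nor their size of change bears on the list as a whole. Nor does a missing name mean no change: ACTG1, which the paper describes as down-regulated, is among the 30. The list was also put together with results of these data known, so its direction is not independent evidence. All 15 had a lower mean in RSV, while 56.5% of the 1860 named mRNAs did, with a median log2 ratio of −0.81 for the 15 and −0.41 for the 1860. For 11 of the 15 a lost decimal point was placed so that the groups lay within 3.16 fold. With these included, the log2 ratios of the 15 ran from −1.31 to −0.37. Since mRNAs with small differences have no name, this range is not set against the ratios of bta-miR-143 and bta-miR-145.

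**Figure D3:**
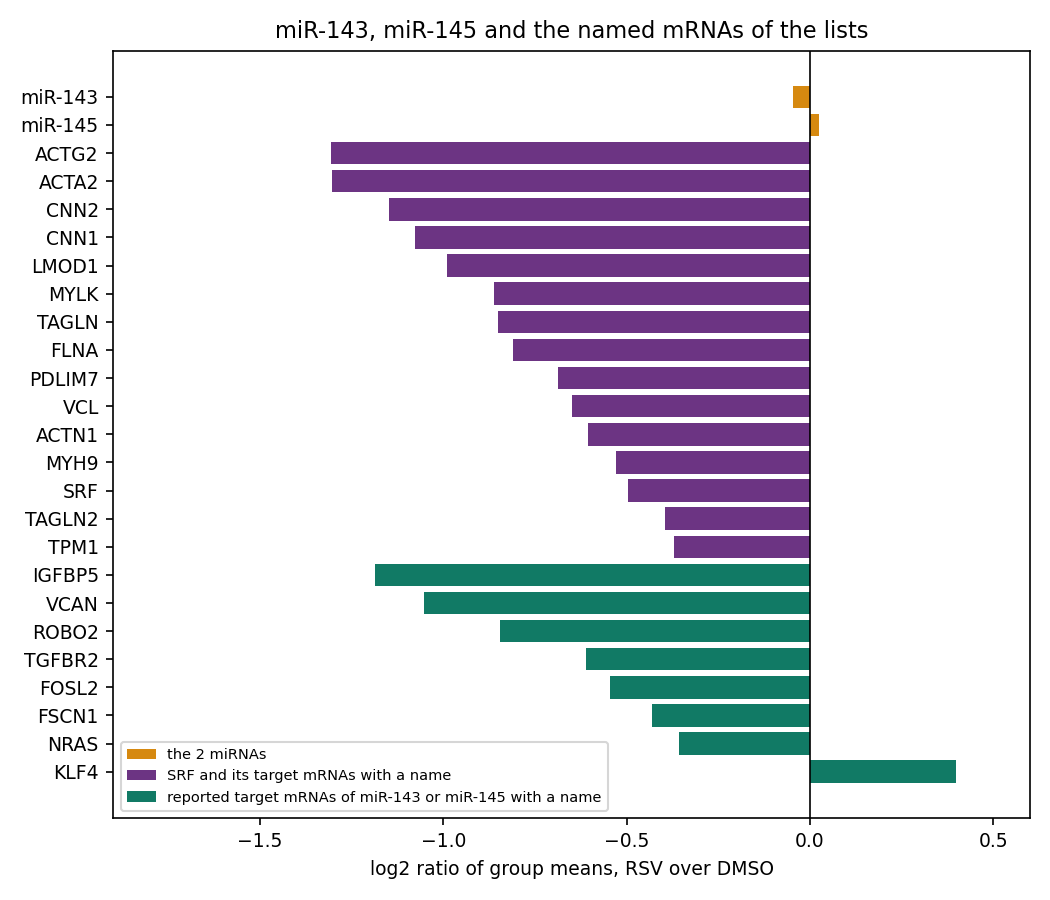
Log2 ratios of the group means (RSV over DMSO) for bta-miR-143, bta-miR-145, the 15 named mRNAs of the SRF list and the 8 named reported targets of either miRNA. The mRNAs of the SRF list run from −1.31 to −0.37. Where reads were not recovered in both groups, the decimal point was placed so that the groups lay within 3.16 fold. mRNAs have a name only where the study called them changed, so those with small ratios are missing and the miRNA bars are no comparison with them.

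Whole reads of all 6 mRNA libraries were recovered for 4 of the 15, and limma voom with Benjamini-Hochberg adjustment called all 4 lower in RSV. The same test called 16.4% of 14259 mRNAs lower and 16.8% higher, and nothing is read from the 4 calls against it, since the names came from changed mRNAs. For the same reason nothing is read from a lack of overlap between the groups, whose share over all mRNAs was not analysed here. SRF (ENSBTAG00000012777), the factor itself, had 1291, 1520 and 1086 normalized reads with RSV against 1755, 1877 and 1863 with DMSO. There was no overlap of the groups. SRF fell by 0.51 on the log2 scale (standard error 0.11, adjusted p = 0.010 from limma voom). LMOD1 (ENSBTAG00000021576), leiomodin, which nucleates actin filaments in smooth muscle, had 1551, 2012 and 994 in RSV and 2837, 3200 and 3017 in DMSO. It fell by 1.05 on that scale, without overlap (standard error 0.21, adjusted p = 0.0074 from limma voom).

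MYLK (ENSBTAG00000014567), the kinase of the myosin light chain, had 2017, 2480 and 1402 normalized reads with RSV against 3481, 3664 and 3572 with DMSO. It fell by 0.90 on the log2 scale (standard error 0.17, adjusted p = 0.0061 from limma voom). CNN2 (ENSBTAG00000020764), a calponin that binds actin, had 2170, 2733 and 1284 in RSV and 4412, 4708 and 4603 in DMSO. It fell by 1.21 on the log2 scale (standard error 0.22, adjusted p = 0.0053 from limma voom). In both genes the lowest DMSO library stood above the highest RSV library.

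For the other 11 the reads of a group were too many to be worked back, so they were not tested. CNN1 (ENSBTAG00000011207), the calponin of smooth muscle, had 2387, 3719 and 1308 normalized reads with RSV, and its group means gave a log2 ratio of −1.08. ACTG2 (ENSBTAG00000015441), the gamma actin of smooth muscle, had 3253, 4452 and 1574 in RSV and a log2 ratio of −1.31. ACTA2 (ENSBTAG00000014614), the alpha actin of smooth muscle, had a log2 ratio of −1.30. The coding sequences of ACTA2 and ACTG2 are so alike that reads may be split between them, so the 2 ratios are not independent.

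The remaining members were the following, each with the log2 ratio of its means. TAGLN, the actin-binding transgelin that is an early marker of smooth muscle, was at −0.85, and its relative TAGLN2 at −0.40. The actin crosslinkers FLNA and ACTN1 were at −0.81 and −0.61, and VCL, which ties actin to focal adhesions, was at −0.65. PDLIM7, an adaptor at actin filaments, was at −0.69. MYH9, the heavy chain of a non-muscle myosin, was at −0.53, and TPM1, a tropomyosin, at −0.37. The co-activators MYOCD, MRTFA and MRTFB had no name that matched a single mRNA and were not analysed here, nor were the other members without such a name.

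The RSV libraries differed among themselves in these genes. In 6 of the 6 genes of the list with reads from the RSV group, the library with a size factor of 1.05 was the lowest and the one with 1.08 the highest. The highest stood above the lowest by 1.40 fold in SRF and by up to 2.84 fold in CNN1. The DMSO libraries lay within 1.05 to 1.13 fold of each other in the 4 genes with reads. Among the targets described below, the library at 1.05 was also the lowest RSV library in KLF4, IGFBP5, TGFBR2 and NRAS, and the highest in ROBO2. How often it was the lowest over all mRNAs was not analysed here, so its place is not one particular to the SRF list. Leaving out the library at 1.05, the median log2 ratio of the 4 tested genes moved from −0.93 to −0.71, and all 4 were still called by limma voom. These libraries could not be linked to the miRNA libraries, so whether bta-miR-143 and bta-miR-145 varied along with them is not known.

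**Figure D4:**
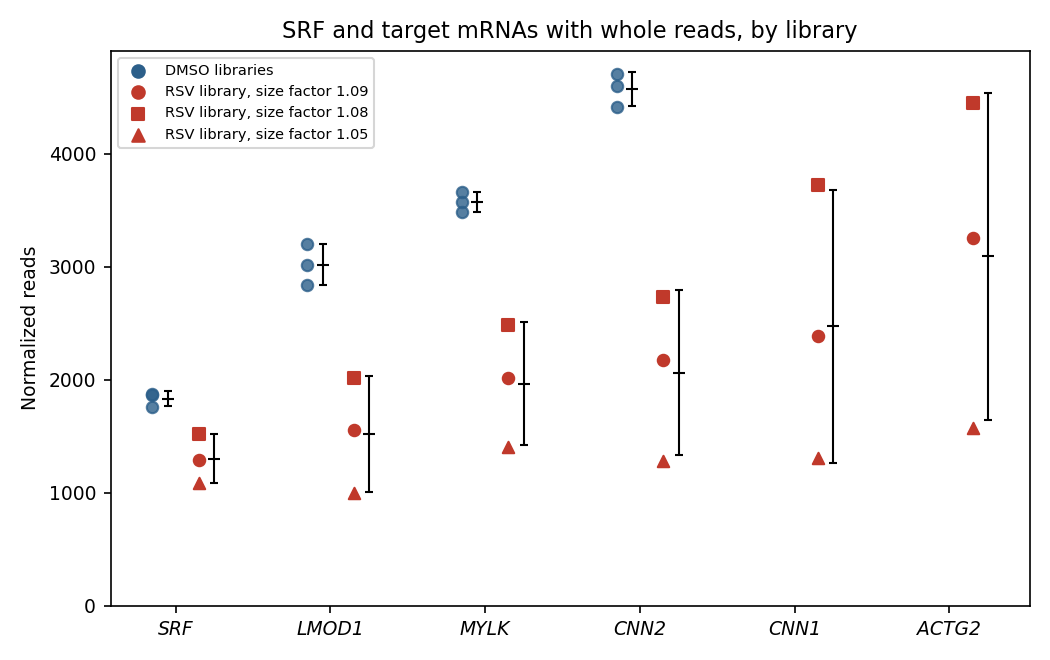
Normalized reads of SRF and 5 mRNAs of its list in each recovered library, with mean and SD of the 3 libraries of a group as bars. For CNN1 and ACTG2 the DMSO libraries could not be recovered and only RSV points are drawn. In SRF, LMOD1, MYLK and CNN2 the groups do not overlap, from which nothing is read because the names came from changed mRNAs. The library at 1.05 (size factor) is the lowest RSV point in every gene drawn.

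A list of 29 mRNAs that have been described as targets of miR-143 or miR-145 was examined in the same way. A name in the sheet of changed mRNAs matched a single mRNA for 8 of the 29. Of these, 7 had a lower and 1 a higher mean in RSV, with a median log2 ratio of −0.58. Over the 1860 named mRNAs, 56.5% were lower and the median was −0.41. The other 21 were not analysed here. Reads of all libraries were recovered for 5, of which limma voom called 4 lower and 1 higher. The same test called 16.4% of 14259 mRNAs lower and 16.8% higher. As in the SRF list, the names came from changed mRNAs, so nothing is read from these calls. Nor is anything read from a lack of overlap between the groups, whose share over all mRNAs was not analysed here. KLF4 (ENSBTAG00000020355), a transcription factor that holds smooth muscle cells in an immature state, had 2040, 2087 and 2020 normalized reads with RSV against 1543, 1585 and 1538 with DMSO. Every RSV library was above every DMSO library, and it rose by 0.40 on the log2 scale (standard error 0.049, adjusted p = 0.0011 from limma voom).

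IGFBP5 (ENSBTAG00000007062), a binding protein of insulin-like growth factors, had 230, 251 and 112 normalized reads in RSV and 453, 410 and 485 in DMSO. It fell by 1.26 on the log2 scale (standard error 0.24, adjusted p = 0.0071 from limma voom). ROBO2 (ENSBTAG00000010462), a receptor of the guidance protein Slit, had 257, 243 and 273 in RSV and 458, 424 and 509 in DMSO, and it fell by 0.84 (standard error 0.10, adjusted p = 0.00092 from limma voom). Neither gene had overlapping groups.

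TGFBR2 (ENSBTAG00000019832), a receptor of transforming growth factor beta, had 1897, 1951 and 1520 normalized reads in RSV and 2735, 2813 and 2654 in DMSO. It fell by 0.62 on the log2 scale (standard error 0.092, adjusted p = 0.0023 from limma voom). NRAS (ENSBTAG00000046797), a GTPase of growth signalling, had 2166, 2397 and 2061 in RSV and 2872, 2865 and 2753 in DMSO, and it fell by 0.36 (standard error 0.064, adjusted p = 0.0051 from limma voom). The 3 named targets without recovered reads, VCAN, FOSL2 and FSCN1, had log2 ratios of −1.05, −0.55 and −0.43, which also rest on a placed decimal point. VCAN encodes the matrix proteoglycan versican, FOSL2 a subunit of the AP-1 factor and FSCN1 the actin-bundling fascin. No relation between these mRNAs and bta-miR-143 or bta-miR-145 was tested.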

How the data were processed

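Small RNA and mRNA of 3 RSV and 3 DMSO cultures were sequenced, and samples were grouped by their titles. Per the labels and methods, the authors aligned small RNA tags to the bovine build UMD_3.1.1 (Bowtie 0.12.9) and named miRNAs by miRBase. The aligner for mRNA is not given in the sources used here. The deposited values are group means of read counts scaled by size factors, as the values themselves show. The authors' log2 fold changes, P-values and calls in the same table were not used. Single samples have no column.

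Most mRNA means had lost their decimal point. Each mean was written as whole reads over size factors, and a combination was accepted when fewer than 0.01 were expected by chance. This gave reads for 19691 of 20459 mRNAs with reads, up to a mean of 4784, and between 8486667 and 10279765 reads per library. Recovered libraries carry no replicate number. For higher mRNA means the decimal point was placed so that the groups lay within 3.16 fold, which held for 99.3% of 3592 settled mRNAs with a mean of at least 1000 in a group. Recovered mRNA reads with a mean of at least 10 went into limma voom (version 3.58.1 under R 4.3.3) with Benjamini-Hochberg adjustment and a threshold of 0.05, a test added after the data were seen. The remaining work was done in Python 3.11.15 (pandas 2.3.3, numpy 2.4.6, numba 0.67.0, scipy 1.17.1, matplotlib 3.10.9). In simulated data, reads were recovered for 1000 of 1000 means, and limma voom found 169 of 200 genes changed by a log2 of 1, with 4 false calls. The simulated means did not reach the highest recovered mean of 4784. The RSV size factors that made these means also served to recover them, so error in the size factors was not tried. In the limma simulation, the spread between libraries beyond counting error was set alike for all genes and both groups. Simulated libraries also did not vary together across genes as the RSV libraries did in the SRF list.

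Gene names came from the study's sheet, without its values, and a list gene was used only where its name matched a single mRNA. The members, lists and named genes (both miRNAs, 3 neighbours in level and in ratio, markers, named list members) were chosen with earlier results of these data known. The alternatives were other scalings, a pseudocount, no minimum, another limma fit and each library left out.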

Additional observations from a re-analysis of the deposited data

How the results depend on the processing

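The sign of the difference of bta-miR-143 and of the cluster sum depends on the scaling, and that of bta-miR-145 does not under those tried. Whether either miRNA differed less than its neighbours in level also depends on the scaling. As a share of all miRNA reads, the log2 ratio moved from −0.05 to 0.10 for bta-miR-143, from 0.03 to 0.17 for bta-miR-145 and from −0.04 to 0.10 for their sum. With near-identical rows counted once in the total, a choice made after seeing the data, these were 0.084, 0.16 and 0.089, and centred on the miRNAs with a mean of at least 10000, also chosen after seeing the data, 0.086, 0.16 and 0.092. A pseudocount of 1 moved neither miRNA by a printed digit. The count of miRNAs at least 1.5 fold apart went from 38 to 194 without a minimum mean, which adds miRNAs of few reads, and to 48 on either other scaling. For the mRNAs of both lists, limma called the same 4 and 5 tested genes with a trend, without a minimum and without any library in turn. The names came from changed mRNAs, and the calls were close to the threshold of 0.05 in some of these fits: the highest adjusted p from limma voom rose from 0.010 to 0.049 in the SRF list and from 0.0071 to 0.035 among the targets. Over all mRNAs, 2344 lower and 2401 higher were called with all libraries. Leaving out the DMSO library with a size factor of 0.964, 0.960 or 0.886 brought the calls in both directions together to 2467, 2581 and 2335, and leaving out an RSV library gave 3311 to 5960. TMM scaling, limma on the miRNAs and leaving out a miRNA library were not run for bta-miR-143 and bta-miR-145, whose single libraries could not be recovered. No paired analysis was possible because the table holds group means and the recovered libraries carry no replicate number. The spread between cultures was not measured for either miRNA.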
